A study of Rattus norvegicus with 4 samples.

Results

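The genes described here are 8 genes of MHC class I peptide loading, *Tap1*, *Tap2*, *Tapbp*, *B2m*, *Nlrc5*, *Calr*, *Canx* and *Pdia3*. They were taken by gene name from a table of 34773 rat genes, and all 8 were found in it. RNA-seq was performed on 4 libraries of rat embryonic stem cells (ESCs). The WT library came from DA-5-3GFP cells, a rat ESC line that carries a Rex1-GFP reporter of naive pluripotency. The 3 Thop1-KO libraries (#1, #2 and #3) came from subclones of that line in which *Thop1* was disrupted with Cas9, each library from 1 clone, and they carry the same reporter. The study's methods place its rat ESCs on feeder cells, in a medium with kinase inhibitors and LIF. The description deposited with the series calls the cells haploid, whereas the study describes DA-5-3 as diploid. With 1 WT library, the genotype cannot be told apart from that single culture or library, and the replicate spread is that among the 3 subclones.

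MHC class I molecules carry short peptides from inside the cell to its surface, where T cells read them. Cytosolic peptides enter the endoplasmic reticulum (ER) through the transporter made of TAP1 and TAP2. There a class I heavy chain pairs with beta-2 microglobulin, encoded by *B2m*, and is held in a peptide loading complex. In that complex tapasin (*Tapbp*) bridges the heavy chain to the transporter, calreticulin (*Calr*) holds its sugar chain and ERp57 (*Pdia3*) is joined to tapasin, while calnexin (*Canx*) acts on the heavy chain earlier. NLRC5 is the transactivator that raises transcription of class I genes. Pluripotent cells are known for low class I expression. THOP1, the protein disrupted here, is a cytosolic peptidase that trims or destroys short peptides, some of them class I ligands, before they reach the transporter.

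None of the 8 genes passed the test between Thop1-KO and WT. With edgeR's quasi-likelihood test and Benjamini-Hochberg adjustment over all 15028 genes tested, 0 of the 8 had an adjusted p under 0.05, beside 13.8% of all genes (8.62% higher and 5.17% lower in Thop1-KO). The median log2 fold change of the 8 was 0.31, also with *Nlrc5* set to its lower bound, beside 0.06 over all genes tested. At an unadjusted p under 0.05 there were 3 of 8 (*B2m*, *Nlrc5* and *Tap1*), beside 34.0% of all genes. DESeq2 called 1 of the 7 members to which it gave an adjusted p, *Tap1*, beside 21.5% of all genes it adjusted. The WT library lay below the 3 subclones for *Tap1*, *Tap2* and *Nlrc5*, above them for *B2m* and *Pdia3*, and among them for *Tapbp*, *Calr* and *Canx*. Over all genes tested it lay outside the subclones' range in 75.7%, so that 5 of 8 is no larger a share.

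The stretches of promoter sequence in which the members carry known motifs are shown first. They group the members into genes with immune motifs and genes with a folding motif. The motifs were chosen after the promoters had been looked at, so this grouping and the shares given below are description and test nothing. Promoter windows of 250 bases before and 50 after the gene's start were taken from RefSeq (rat build GRCr8), and 6 of the 8 members had one; *Nlrc5* and *Pdia3* had none in the table used. Both strands were searched for 3 motifs: the core of the interferon-stimulated response element (GAAA, any 2 bases, GAAA), a kappa B site (GGGA, any base, TTTCC) and the ER stress response element (CCAAT, any 9 bases, CCACG). The motif letters are in capitals, and each stretch is written along the gene's own strand, 5′ to 3′.
Tap1, chr20:4668640-4668679, minus strand, interferon-stimulated core on the opposite strand: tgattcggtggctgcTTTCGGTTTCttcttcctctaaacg
Tap1, chr20:4668574-4668613, minus strand, kappa B site: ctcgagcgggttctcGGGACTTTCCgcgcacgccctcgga
Tap2, chr20:4652313-4652352, minus strand, interferon-stimulated core: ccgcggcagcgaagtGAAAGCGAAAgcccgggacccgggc
Tapbp, chr20:4967919-4967948, minus strand, kappa B site: gaccagcgcaGGGAATTTCCagttcctcac
Tapbp, chr20:4967881-4967910, minus strand, 2 overlapping interferon-stimulated cores: tttgaggGAAAATGAAAGTGAAAggaaaca
B2m, chr3:129549165-129549217, plus strand, interferon-stimulated core followed by a kappa B site on the opposite strand: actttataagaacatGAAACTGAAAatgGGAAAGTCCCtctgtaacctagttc
Calr, chr19:40213120-40213168, plus strand, ER stress response element on the opposite strand: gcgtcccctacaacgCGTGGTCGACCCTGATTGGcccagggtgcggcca
Canx, chr10:35158054-35158102, minus strand, ER stress response element: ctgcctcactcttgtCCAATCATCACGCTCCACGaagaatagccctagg

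The interferon-stimulated core was present in 4 of the 6 windows (*Tap1*, *Tap2*, *Tapbp* and *B2m*), beside 3.92% of all 33469 promoter windows. The kappa B site was present in 3 (*Tap1*, *Tapbp* and *B2m*), beside 0.362%. The ER stress response element was present in *Calr* and *Canx* alone among the 6, beside 0.0657% of all windows, or 22 windows. Of genes induced by interferon, 11 of 14 windows held the interferon-stimulated core, and of ER folding genes 6 of 21 held the ER stress response element. In the peptide supply genes listed further on, 4 of 19 windows held the interferon-stimulated core and 0 the kappa B site. In windows of RT1 class I heavy chain genes these were 3 and 0 of 33. In windows of the regulators of class I genes, also listed further on, they were 3 and 3 of 23. The kappa B site was also present in 1 of the 14 windows of interferon-induced genes. Of the 21 windows of ER folding genes, 2 held the interferon-stimulated core. A match is a match of letters and was not tested for binding, and both *Tapbp* stretches lie within the span RefSeq gives the gene. The coordinates of these stretches belong to GRCr8 and are not those of the deposited annotation given with the genes further on.

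**Figure D1:**
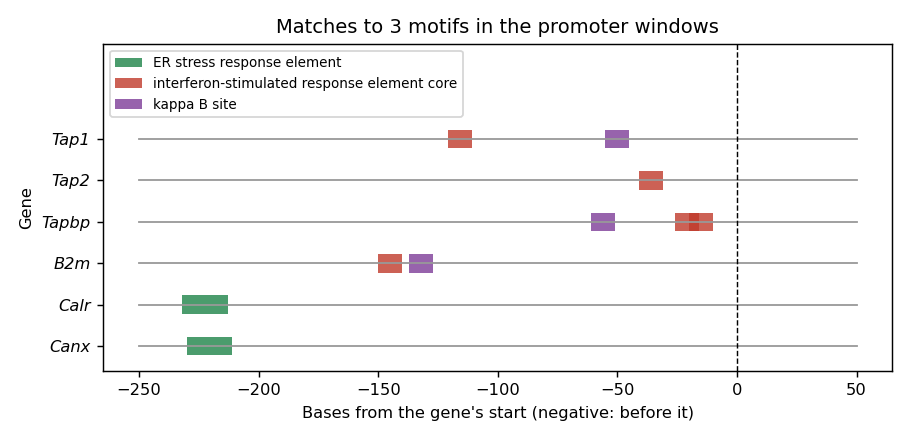
Position of motif matches in the promoter windows of 6 peptide loading genes, in bases from the gene's start (dashed line), with the gray lines showing the 250 bases before and 50 after it. Red bars are interferon-stimulated cores, purple bars kappa B sites and green bars ER stress response elements; *Calr* and *Canx* carry the green motif alone, and the other 4 genes carry the red one.

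The levels of the 8 genes were far apart, and their order was the same in all 4 libraries. FPKM, a read abundance scaled to library depth and gene length, is the scale used between genes. From the highest to the lowest the order was *Calr*, *Pdia3*, *B2m*, *Canx*, *Tapbp*, *Tap1*, *Tap2* and *Nlrc5*. The subclones' mean FPKM was 399 ± 149 (SD, n = 3) for *Calr* and 0.0924 ± 0.0428 for *Nlrc5*. *Tap1* and *Tap2* were the one pair of neighbours in this order whose ranges over the 4 libraries overlapped. The transporter subunits and the transactivator were thus the lowest of the 8 genes in these cells, with *Calr* and *Pdia3* the highest. *Calr*, *Canx* and *Pdia3* together took 84.4%, 89.3% and 84.3% of the 8 genes' summed FPKM in #1, #2 and #3, and 78.9% in WT.

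**Figure D2:**
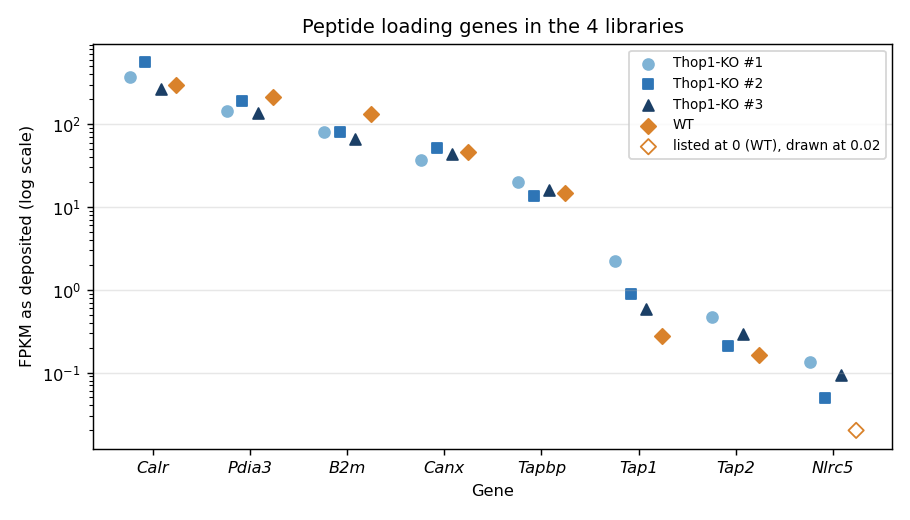
FPKM as deposited (log axis) of the 8 peptide loading genes in each library, with circles, squares and triangles for Thop1-KO #1, #2 and #3 and diamonds for WT. The order of the genes is the same in every library; *Nlrc5* is listed at 0 in WT and is drawn as an open diamond at the foot of the axis.

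*Tap1*, the first transporter subunit (ENSRNOG00000000457, chromosome 20, 3979035 to 3989669 in the deposited annotation, whose build is not given in the sources used here), had 155, 65 and 45 counts in #1, #2 and #3 and 17 in WT. As CPM, counts scaled to library size with TMM normalization, these were 9.24, 3.68, 2.50 and 1.14. All 3 subclones were above WT, and #1 was far above the other subclones. The WT count of 17 has an exact Poisson interval of 9.90 to 27.2 at 95%, which covers counting error only. The log2 fold change of Thop1-KO against WT was 2.16 ± 0.89 (SE), with a 95% interval of 0.03 to 4.29 and an edgeR adjusted p of 0.142. The adjusted p was 0.0489 with DESeq2 and 0.0252 with #2 left out of the edgeR fit, and it ranged up to 0.273 over the 12 settings run. Without #1 the log2 fold change was 1.44 (adjusted p = 0.190), and with limma on log2(FPKM + 1) it was 0.74 (adjusted p = 0.273).

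*Tap1* also varied among the subclones more than most genes of its level. Its CPM had a coefficient of variation of 70.0% over the 3 subclones, beside a median of 26.2% in the 1540 genes whose mean CPM lay within 0.5 log2 units of it. Of those genes 96.7% varied less.

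*Tap2*, the second transporter subunit (ENSRNOG00000000455, chromosome 20, 3995544 to 4009587), had 19, 9 and 13 counts in #1, #2 and #3, against 6 in WT. Its CPM was 1.13, 0.509 and 0.724 against 0.404. The WT library was the lowest, but its 6 counts have an exact Poisson interval of 2.20 to 13.1, which holds 2 of the 3 subclones' raw counts. The log2 fold change was 0.95 ± 1.00 (95% interval -1.43 to 3.33, edgeR adjusted p = 0.527). A difference in *Tap2* was not detectable at this depth. The FPKM of *Tap1* was 4.78, 4.24 and 2.03 times that of *Tap2* in the subclones and 1.66 times in WT.

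*Tap1* and *Tap2* lie next to genes of the immunoproteasome, the form of the proteasome that favours class I ligands. *Psmb9* lies 189 bases from the start of *Tap1* on the opposite strand, and *Psmb8* lies between *Tap1* and *Tap2*. *Psmb9* had 135, 119 and 90 counts against 58 in WT, so WT was again the lowest of the 4 (edgeR adjusted p = 0.283). *Psmb8* had 1, 0 and 0 counts against 3 in WT and was too low to be tested. No gene next to or overlapping one of the 8 was called.

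*Tapbp*, encoding tapasin (ENSRNOG00000029500, chromosome 20, 5468078 to 5476193), had CPM of 41.7, 28.3 and 33.8 in the subclones and 30.5 in WT. The WT library lay among the subclones. Thop1-KO and WT differed by a log2 fold change of 0.18 ± 0.32 (95% interval -0.58 to 0.95, edgeR adjusted p = 0.715). The gene overlaps an antisense gene, AC128962.1, with 21, 7 and 14 counts against 13. Whether counting used the strand is not given in the sources used here, so the reads of the pair cannot be told apart. These counts are small beside the 699, 500, 608 and 453 counts on *Tapbp*.

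*B2m*, the light chain shared by all classical class I molecules (ENSRNOG00000017123, chromosome 3, 114087287 to 114093309), went the other way. It had 2456, 2649 and 2220 counts against 3665 in WT. The CPM was 146, 150 and 124 against 247, so that the subclones were close together and each was at 50.1% to 60.8% of WT. The log2 fold change was -0.82 ± 0.23 (95% interval -1.36 to -0.27), with an unadjusted p of 0.00982 and an adjusted p of 0.0600 by edgeR. The call depended on the setting: the adjusted p was 0.0445 with upper quartile normalization, where 14.4% of all genes were called, and 0.00523 without #2, but 0.262 without #3. The fold change stayed between -0.91 and -0.74 over the 12 settings run. The coefficient of variation over the subclones was 10.2%, beside a median of 14.5% in genes of like level.

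*Nlrc5*, the transactivator (ENSRNOG00000048222, chromosome 19, 10905542 to 10976396), was near the floor of detection. It had 13, 5 and 10 counts in #1, #2 and #3, against 0 in WT. Every subclone was above WT, yet 0 counts allow up to 3 at this depth. Against that floor of 3 counts in the WT library, the subclones' mean was at least 2.67-fold higher. The edgeR adjusted p was 0.114, and DESeq2 gave none.

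*Calr*, the gene at the top of the set (ENSRNOG00000003029, chromosome 19, 25956771 to 25961666), differed more among the subclones than between the genotypes. Its CPM was 703, 1054 and 504 in #1, #2 and #3 and 559 in WT. The WT library lay between #3 and #1. The log2 fold change was 0.43 ± 0.40 (95% interval -0.52 to 1.38, edgeR adjusted p = 0.473). The coefficient of variation of 37.0% over the subclones stood beside a median of 11.4% in 139 genes of like level, of which 94.2% varied less.

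*Canx*, encoding calnexin (ENSRNOG00000003343, chromosome 10, 35800942 to 35833861), had CPM of 186, 262 and 225 in the subclones and 232 in WT. The WT library was again among the subclones, with #2 the highest as for *Calr*. Its log2 fold change was -0.05 ± 0.26 (95% interval -0.68 to 0.58, edgeR adjusted p = 0.910), and its sign turned with the scaling. As folds, the interval ran from 0.624 to 1.49.

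*Pdia3*, encoding the disulfide isomerase ERp57 (ENSRNOG00000015018, chromosome 3, 113376983 to 113400707), had CPM of 272, 364 and 266 in the subclones and 405 in WT. The WT library was the highest, with #2 close to it at 89.9% of WT and the others at 67.1% and 65.5%. Thop1-KO against WT gave a log2 fold change of -0.43 ± 0.26 (95% interval -1.05 to 0.18, edgeR adjusted p = 0.275). Without #2 the adjusted p was 0.0252, and over the 12 settings it ranged up to 0.601. *Pdia3* overlaps *Ppip5k1* on the opposite strand, which had 343, 525 and 381 counts against 416, beside 4565, 6441, 4771 and 6025 on *Pdia3*.

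The number of calls moved with #2. Without that subclone *Tap1*, *B2m* and *Pdia3* were called, which is 3 of 8, but 37.9% of all genes tested were then called as well.

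**Figure D3:**
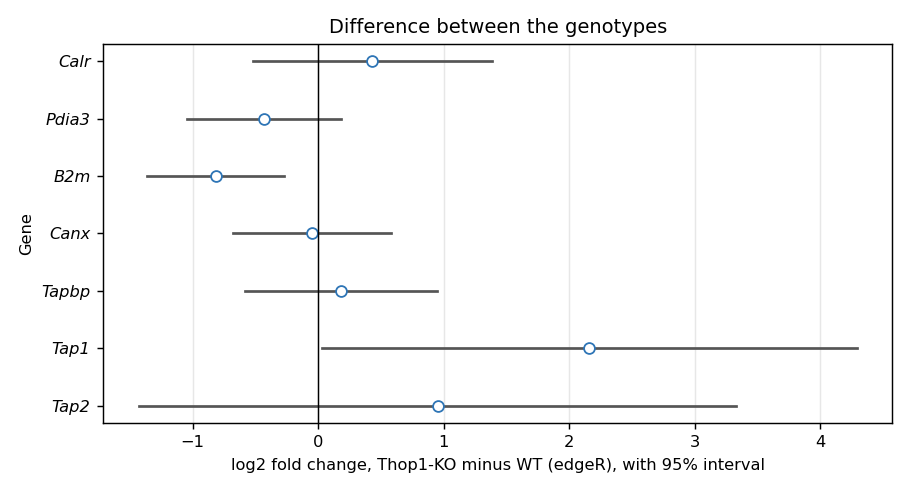
Log2 fold change of Thop1-KO (3 libraries) against WT (1 library) by edgeR for 7 peptide loading genes; points are estimates and lines their 95% intervals. The intervals of *B2m* (below 0) and *Tap1* (just above 0) leave out 0 before adjustment over all genes; *Nlrc5* is not drawn because WT had 0 counts.

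The genes whose pattern over the 4 libraries was closest to each member were found by the Euclidean distance of centred log2 CPM. The nearest were *Hs3st6* to *Tap1*, *Rab40c* and *Tmem38a* to *Tap2*, *Metrn* and *Sin3a* to *Tapbp*, and *Srp9* and *Cdkn3* to *B2m*. *Slc25a48* and *Ccnt1* were nearest to *Nlrc5*, *Aacs* and *Npl* to *Calr*, *Brf1* and *Pip4p1* to *Canx*, and *Dnajc10* and *Ddx20* to *Pdia3*. Some of these matches rest on few counts. *Slc25a48* had the same CPM as *Nlrc5*, 0.775, 0.283, 0.557 and 0 in #1, #2, #3 and WT, at a distance of 0. *Ccnt1* had 0.716, 0.283, 0.557 and 0, and *Hs3st6* had 0.656, 0.283, 0.111 and 0. *Srp9* had CPM of 33.6, 34.8, 29.6 and 57.6 in #1, #2, #3 and WT, at a distance of 0.0430 log2 units from *B2m*. *Dnajc10*, an ER thiol reductase, had 25.9, 35.2, 24.8 and 37.5, at 0.0496 from *Pdia3*. *Tap1* had the most distant nearest gene, at 0.264. No other member of the set was among these genes, and with 4 libraries many genes share a pattern.

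The label of the KO libraries was checked on the disrupted gene. The counts on *Thop1* were 1843, 1635 and 2680 in #1, #2 and #3, against 5500 in WT. It fell in all 3 subclones, to 31.7% of WT on average, and was not at 0 (log2 fold change -1.66, edgeR adjusted p = 0.0187).

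*Thop1* belongs to the peptide supply of the pathway, for which 20 genes were listed (proteasome subunits and activators, peptidases, the tapasin relative *Tapbpl* and ER glycan enzymes). Of 17 tested, 0 were called higher and 2 lower, *Thop1* and *Tpp2*, a share of 11.8% beside the 13.8% of all genes, with a median log2 fold change of -0.26 beside 0.06 over all genes tested. *Thop1* is the gene disrupted in these subclones, so its call says nothing of the other genes on the list. The share and the median both include it. *Tpp2*, a large cytosolic peptidase, had CPM of 22.9, 19.8 and 25.8 against 57.5 (adjusted p = 0.0280), and was not called with limma on FPKM or without #3. *Tapbpl* had the largest log2 fold change, 1.69, with CPM of 1.61, 1.92 and 1.73 against 0.538 (adjusted p = 0.150). *Lap3*, a leucine aminopeptidase, had the highest mean CPM on the list, a scale not corrected for gene length, with CPM of 324, 362 and 339 against 456 (adjusted p = 0.205).

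The heavy chains, the partners of *B2m*, are encoded in the rat by the RT1 family. It had 21 class I genes by name, of which 11 were tested, with 2 called higher and 1 lower (27.3%, beside 13.8% of all genes) and a median log2 fold change of 0.37. *RT1-CE7* was called higher, with CPM of 35.5, 20.7 and 26.9 against 2.96 (log2 fold change 3.22, adjusted p = 0.0128). *RT1-CE4* was called lower, with CPM of 17.1, 21.0 and 15.2 against 66.1 (log2 fold change -1.89, adjusted p = 0.0128). *RT1-M3-1* was called higher, with 43, 19 and 33 counts against 0, which is at least 9.04-fold over the floor (adjusted p = 0.0304). *RT1-CE5*, with the highest mean CPM, had CPM of 56.6, 26.4 and 36.1 against 32.4 (adjusted p = 0.670). Without #3, *RT1-CE4* and *RT1-M3-1* were no longer called, and *RT1-M3-1* was not called with limma on log2(FPKM + 1).

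These values per gene are uncertain, because the models of *RT1-CE4*, *RT1-CE5* and *RT1-CE7* overlap one another in the deposited annotation and the family consists of close copies that can split reads. The 3 models were therefore also summed, a choice made after their values were seen. Together they had 1832, 1203 and 1407 counts in #1, #2 and #3, and 1509 in WT, which lay among the subclones. *RT1-CE4* took 15.7%, 30.8% and 19.5% of these counts in the subclones and 65.1% in WT, while *RT1-CE7* took 32.5%, 30.4% and 34.4% against 2.92%. The counts were thus distributed differently over the models, at totals that were not separated. The FPKM of *B2m* was 1.42, 2.51 and 1.75 times the summed FPKM of the class I RT1 genes in the subclones and 3.47 times in WT. This ratio depends on the split of reads, because FPKM divides by model length. *RT1-CE4* has 4582 bases, against 1846 for *RT1-CE5* and 2452 for *RT1-CE7*. The subclones' mean sum over the class I RT1 genes was 110% of WT as FPKM, but 86.5% as CPM.

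**Figure D4:**
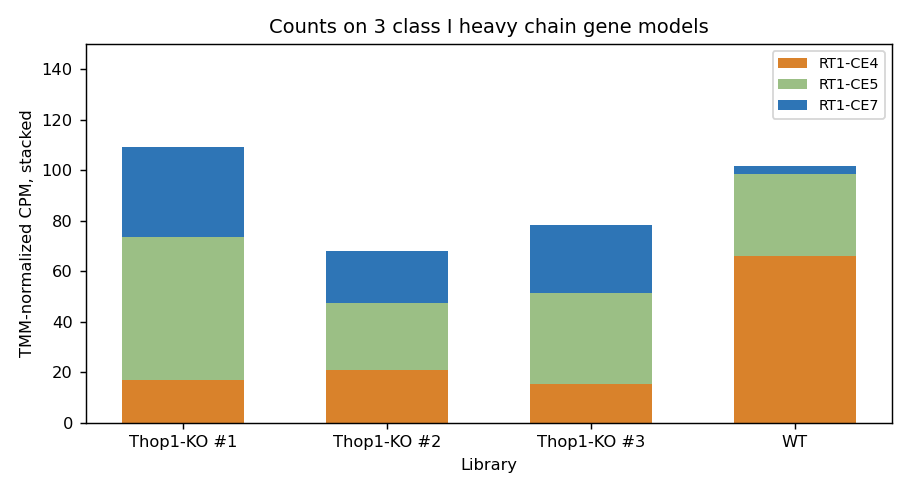
TMM-normalized CPM on *RT1-CE4*, *RT1-CE5* and *RT1-CE7*, stacked per library. The stacks reach 109, 68.0 and 78.3 in Thop1-KO #1, #2 and #3 and 102 in WT, with *RT1-CE4* (orange) the largest part in WT alone.

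Among 28 regulators of class I genes (the RFX and NF-Y factors that work with NLRC5, interferon receptors and their kinases, IRF, STAT and NF-kappa B factors, and Polycomb genes), 27 were tested. None was called higher and 2 were called lower (7.41%, beside 13.8% of all genes), with a median log2 fold change of 0.25. *Socs1*, an inhibitor of cytokine signalling, had CPM of 25.5, 32.0 and 19.4 against 72.0 (log2 fold change -1.49, adjusted p = 0.0307). *Ezh2*, the methyltransferase of Polycomb, had CPM of 18.5, 21.5 and 21.2 against 46.2 (log2 fold change -1.18, adjusted p = 0.0368). Both calls were lost without #3, and that of *Ezh2* also without #1 and with limma on FPKM. *Jak2*, a kinase of the interferon gamma receptor, had the largest log2 fold change, -2.06, with CPM of 2.68, 10.2 and 4.90 against 24.7 (adjusted p = 0.0707). *Nfya*, with the highest mean CPM, had CPM of 208, 150 and 160 against 106 (adjusted p = 0.137).

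Of 20 interferon-induced genes, 11 were tested, with 0 called higher, 1 lower (9.09%, beside 13.8% of all genes) and a median log2 fold change of -0.11. *Isg15*, a ubiquitin-like protein, was the gene called: it had 58, 131 and 43 counts in #1, #2 and #3, against 1170 in WT (log2 fold change -4.15, adjusted p = 0.00878). WT lay above the subclones for 6 of the 11 (*Isg15*, *Oasl*, *Mx2*, *Irf7*, *Gbp5* and *Gbp2*). It lay below them for 3 (*Ddx58*, *Bst2* and *Xaf1*) and among them for 2, and only *Isg15* was called. In WT, the library with the most *Isg15*, *Tap1* and *Tap2* were at their lowest, *B2m* was at its highest and *Tapbp* lay among the subclones. A relation of these genes to *Isg15* was not tested. *Gbp2*, a guanylate-binding protein with the highest mean CPM on the list, had CPM of 103, 101 and 86.5 against 105 (adjusted p = 0.782). *Ifit2*, *Ifit3* and *Usp18* had 0 counts in all 4 libraries.

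Of 25 other ER folding genes, 24 were tested, with 2 called higher, 1 lower (12.5%, beside 13.8% of all genes) and a median log2 fold change of 0.10. *Hyou1*, an ER chaperone of the HSP70 type, had CPM of 243, 159 and 190 against 66.3 (log2 fold change 1.57, adjusted p = 0.0287). *Txndc5*, a disulfide isomerase like *Pdia3*, had CPM of 192, 125 and 142 against 56.3 (log2 fold change 1.44, adjusted p = 0.0370). *Dnajb9*, a co-chaperone, was lower, with CPM of 3.22, 3.79 and 3.51 against 10.2 (log2 fold change -1.53, adjusted p = 0.0418). All 3 calls were lost without #3, and that of *Dnajb9* also without #1, with library size only and with limma on FPKM. *Ero1b*, an ER oxidase, had the largest log2 fold change, 2.79, with CPM of 1.97, 1.47 and 2.28 against 0.269 (adjusted p = 0.0673). *P4hb*, with the highest mean CPM over the 4 libraries, had CPM of 959, 915 and 928 against 628 (adjusted p = 0.102). *Hspa5*, the chaperone BiP, named after its values were seen, had CPM of 277, 466 and 201 against 294, highest in #2 and lowest in #3 as was *Calr*.

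**Figure D5:**
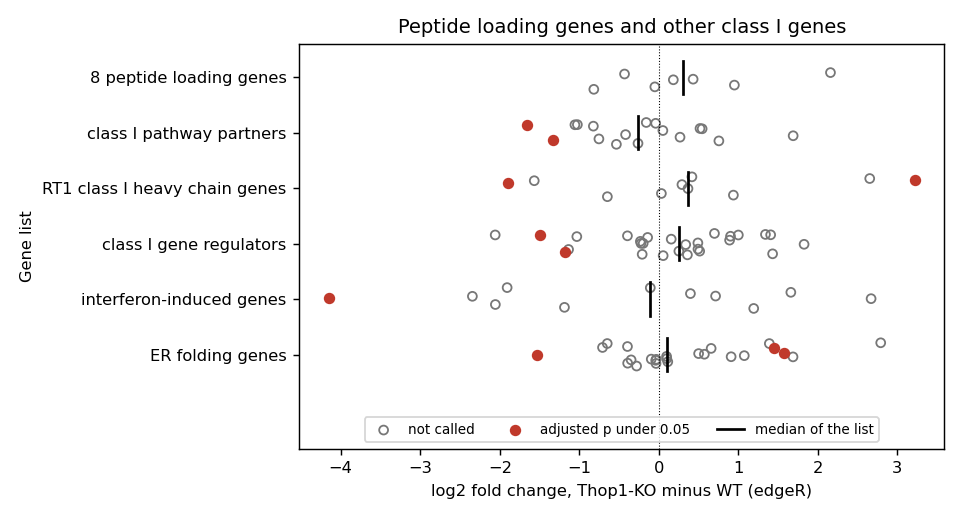
Log2 fold change of Thop1-KO against WT by edgeR for the tested genes of the 8 peptide loading genes and of 5 other lists; filled points were called, open points were not, and black bars are medians. None of the 8 is filled, and each other list holds 1 to 3 filled points. The share called in those lists was 7.41% to 27.3% of the genes tested, beside 13.8% of all genes. *Nlrc5* and *RT1-M3-1*, with 0 counts in WT, count in the medians but are not drawn.

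Markers of cell state and of other cells were read in the same libraries. The libraries held 15405499 to 17936544 counts on genes. Of 10 pluripotency markers 9 were found by name and tested, and *Pou5f1* had CPM of 3889 to 4842. *Esrrb*, *Tfcp2l1* and *Dppa4* were called higher and *Utf1* lower in Thop1-KO, 44.4% of those tested, beside 13.8% of all genes. *Esrrb*, a factor of naive pluripotency, had CPM of 330, 286 and 328 against 15.9. The summed CPM of 9 fibroblast markers was 340, 688 and 440 in the subclones and 202 in WT, with WT the lowest for all 6 that were tested, 1 called (*Fbln2*) and *Thy1*, *Dcn* and *Lum* at 0. None of the 7 primitive endoderm markers tested was called, with WT the lowest for 5 and the highest for 2. Over all 15028 genes tested, WT was the lowest in 5720 and the highest in 5655. The summed CPM of the endoderm markers, mostly *Lama1*, was 1225, 1369 and 1787 against 856. Of 10 immune cell markers, *Ptprc*, *Cd3e* and *Itgam* were at 0 in every library, and the sum of the list was between 1.89 and 9.96 CPM. *Calr* and *Canx* were highest in #2, the library with the most fibroblast marker RNA, and *Tap1* was highest in #1, the subclone with the least. The order did not hold over all 4 libraries. WT had the least of this RNA, but *Calr* was lowest in #3 (CPM 504, against 559 in WT). *Canx* was lowest in #1 (186, against 232 in WT), and *Tap1* was lowest in WT. The part of these markers in the members' differences was not tested, and fewer cells of a type and less RNA per cell cannot be told apart in such bulk libraries.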

How the data were processed

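The authors deposited raw counts per gene and FPKM values for 4 libraries. The study cleaned its reads with the FASTX toolkit, and the submitters' processing notes name HISAT2 2.0.5 and featureCounts 1.5.0-p3. Genome build and strand setting are not given in the sources used here. Samples were grouped by genotype from the labels. The test on the counts was run in edgeR 4.0.16 (R 4.3.3): filterByExpr with a minimum count of 10 chose the genes, libraries were scaled by TMM, 3 Thop1-KO libraries were compared with 1 WT library by the quasi-likelihood test, and p-values were adjusted over all 15028 genes. An adjusted p under 0.05 was a call. Deposited FPKM values were used for levels between genes. The 4 libraries have no duplicate pair by a chi-square comparison. With 1 library against 3, an exact one-sided permutation test cannot go below 0.25, so none is reported for single genes. A count of up to 3 was the floor.

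The alternatives were edgeR with DESeq2 size factors, upper quartile or library size only, DESeq2 1.42.0, no filter, at least 10 counts in every library, limma 3.58.1 on the log2 scale of FPKM with a pseudocount of 1 or 0.1, and leaving out each subclone. The test was also run on simulated data; while an error in that simulation was being repaired, its dispersions were changed from gene-wise values to those of the quasi-likelihood fit. The genes named were the 8 members, *Thop1*, called genes of the lists with the gene of highest mean CPM and the most changed gene of each, genes next to the members, and the 2 genes of nearest pattern (prior count 2, names made of a clone, locus or database identifier left out). Some genes that these rules name are not reported here. All p-values measure the spread among these subclones. The members and lists were chosen with earlier results of these data known, and the motifs after the promoters had been looked at. Figures were made with Python 3.11.15 and matplotlib 3.10.9.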

Additional observations from a re-analysis of the deposited data

How the results depend on the processing

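No paired analysis was possible because WT is a single library, so the groups share fewer than 2 replicate numbers. Of 84 values of the members' log2 fold changes under the alternatives, 77 kept their direction and side of the threshold, 5 passed it (*Tap1* with DESeq2 and without #2, *B2m* with upper quartile normalization and without #2, *Pdia3* without #2), and *Canx* turned sign in 2, to 0.0278 with library size only and to 0.0788 without #1 (-0.177 to 0.0788 over the fits that left out a subclone). The members called were 1 with upper quartile normalization, 1 with DESeq2 and 0 to 3 when a subclone was left out. Leaving out a subclone gave 457 (without #3) to 5572 (without #2) calls over all genes, 1 to 7 among the pathway partners, 1 to 3 among the RT1 heavy chain genes, 0 to 10 among the regulators, 1 to 5 among the interferon-induced genes and 0 to 12 among the ER folding genes, and fewer libraries entered each of these fits. The highest counts of all lists but the RT1 genes came without #2, where 37.9% of all genes tested were called. DESeq2 called 6 of 26 regulators, 3 of 11 interferon-induced genes and 7 of 24 ER folding genes, beside 21.5% of all genes it adjusted. Limma called 1 of 17 pathway partners and 1 of 27 regulators with either pseudocount, and 2 of 11 interferon-induced genes with a pseudocount of 0.1. Over all 15028 genes it called 1908 with a pseudocount of 1 and 1866 with 0.1. Beyond the smaller number of libraries, the cause of these shifts was not tested. Counts in WT were fewest for *Nlrc5*, *Tap2* and *Tap1*, at 0, 6 and 17, so counting error is widest there.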

Other observations

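Some genes of the antigen presentation pathway that were not called had a WT library outside the subclones, as had 75.7% of all genes tested. *Psmb10*, an immunoproteasome subunit, had CPM of 25.5, 20.4 and 16.8 in the subclones against 42.5 in WT, and *Erap1*, the ER aminopeptidase that trims class I ligands, had 6.68, 8.15 and 13.1 against 19.4. *Ifngr1*, a chain of the interferon gamma receptor, had 9.24, 13.5 and 14.4 against 25.3. *Rfx5*, a factor of the class I promoter complex, had 11.7, 13.1 and 14.4 against 4.84 with an edgeR adjusted p of 0.0521, and *Ddx58*, the RNA sensor RIG-I, had 2.27, 3.17 and 2.39 against 0.404 with an adjusted p of 0.0522. These genes were named after their values were seen.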
